A study of Mus musculus with 84 samples.

Results

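The immediate early genes examined here were 10 genes taken from the count table by symbol: Fos, Fosb, Junb, Jund, Egr1, Egr2, Npas4, Nr4a1, Arc and Dusp1. They were 10 of the 43629 genes in the table, each had its own row, and all 10 passed the filter on low counts that left 17071 genes for testing. Immediate early genes are transcribed within minutes of a stimulus, without new protein synthesis, when calcium and cyclic AMP signals activate kinases that act on factors already bound at their promoters, among them CREB and serum response factor. In the striatum they respond to dopamine and glutamate input onto the medium spiny neurons, the GABAergic output cells of the nucleus, and they are widely used as a trace of recent activity. Most of them encode transcription factors that carry the signal on to later genes, while others act at the synapse or switch the kinase signal off again.

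The series profiled the ventrolateral striatum, dissected by hand, of 84 untreated adult mice by bulk RNA sequencing. They belonged to the S4 generation of the SOT and NOT strains, which were bred by selection on ethanol preference and withdrawal together. The High Drinker group held 44 animals, 21 females and 23 males, and the Low Drinker group held 40, 18 females and 22 males. All were killed by cervical dislocation, and 1 library was made from each. The labels do not say which of SOT and NOT is the High Drinker group, and they give neither the time of killing nor the handling before it.

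Library totals lay between 22190363 and 41300401 counts. The sample numbers that end the library titles run in 3 sequences, called sheet sets here, of 6 (set 3), 48 (set 1) and 30 (set 2) libraries in the order of animal number. They held 3, 30 and 11 High Drinker animals and 3, 18 and 19 Low Drinker animals. That the sets are technical is an inference from the numbering, and sequencing run and animal order cannot be told apart. All 13 markers of medium spiny neurons and all 8 of cortical glutamatergic neurons had counts in every library, so markers of the labelled tissue were present, but their amount varied widely. The summed level of the 13 medium spiny neuron markers ran from 770.6 to 13700 CPM (read counts scaled to a common library total after TMM normalization) in High Drinker libraries, with a median of 4774 CPM, and from 503.7 to 11540 CPM in Low Drinker libraries, with a median of 4151 CPM. The 8 cortical markers summed to 195.6 to 3260 CPM in High Drinker libraries (median 1944) and to 527.1 to 3934 CPM in Low Drinker libraries (median 2055). In bulk tissue, fewer cells of a type and less RNA per cell cannot be told apart. There were 5 libraries that stood apart from the rest by their median rank correlation with the others, High Drinker 17 and Low Drinker 8, 32, 33 and 34, and the results below are also given without them where they matter. Low Drinker 32, 33 and 34, all males of sheet set 2, had medium spiny neuron scores (the mean z of log2 CPM over the markers) between -2.90 and -2.43, the lowest of the series.

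The promoters of 5 members are shown because they carry letters that cyclic AMP signals are known to act through. Of the 5 printed windows, that of Egr2 alone also carries the letters of serum signals. Each is the RefSeq window (GRCm38.p6) from 250 bases before to 50 after the annotated start, written 5′ to 3′ on the gene's strand: Fos at chr12:85473640-85473939 (plus strand), Egr2 at chr10:67537619-67537918 (plus), Npas4 at chr19:4989922-4990221 (minus), Nr4a1 at chr15:101266596-101266895 (plus) and Dusp1 at chr17:26508423-26508722 (minus). Capitals mark TGACG on either strand, the core of the cyclic AMP response element, and the CArG box bound by serum response factor.
Fos: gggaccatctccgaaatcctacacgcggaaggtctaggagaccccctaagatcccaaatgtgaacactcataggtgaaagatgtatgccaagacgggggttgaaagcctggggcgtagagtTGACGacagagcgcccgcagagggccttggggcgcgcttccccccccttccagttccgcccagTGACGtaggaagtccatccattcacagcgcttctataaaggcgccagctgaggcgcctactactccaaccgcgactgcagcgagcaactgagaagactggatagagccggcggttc
Egr2: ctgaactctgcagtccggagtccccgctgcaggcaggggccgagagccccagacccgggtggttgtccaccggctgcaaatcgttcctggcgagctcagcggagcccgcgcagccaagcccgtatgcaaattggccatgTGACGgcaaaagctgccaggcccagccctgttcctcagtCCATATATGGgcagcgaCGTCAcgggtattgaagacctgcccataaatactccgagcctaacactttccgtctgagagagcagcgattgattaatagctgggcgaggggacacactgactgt
Npas4: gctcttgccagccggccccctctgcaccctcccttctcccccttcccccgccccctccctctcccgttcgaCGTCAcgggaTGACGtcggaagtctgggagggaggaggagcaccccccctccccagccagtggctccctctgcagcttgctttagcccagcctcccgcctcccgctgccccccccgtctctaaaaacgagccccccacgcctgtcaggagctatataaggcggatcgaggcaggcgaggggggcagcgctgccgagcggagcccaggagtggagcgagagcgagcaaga
Nr4a1: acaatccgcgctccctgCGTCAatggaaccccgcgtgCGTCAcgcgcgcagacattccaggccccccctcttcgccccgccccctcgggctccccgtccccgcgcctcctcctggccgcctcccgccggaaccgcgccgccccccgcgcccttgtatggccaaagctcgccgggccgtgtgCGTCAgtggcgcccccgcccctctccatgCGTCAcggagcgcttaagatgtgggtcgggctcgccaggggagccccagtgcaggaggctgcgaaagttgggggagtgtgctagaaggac
Dusp1: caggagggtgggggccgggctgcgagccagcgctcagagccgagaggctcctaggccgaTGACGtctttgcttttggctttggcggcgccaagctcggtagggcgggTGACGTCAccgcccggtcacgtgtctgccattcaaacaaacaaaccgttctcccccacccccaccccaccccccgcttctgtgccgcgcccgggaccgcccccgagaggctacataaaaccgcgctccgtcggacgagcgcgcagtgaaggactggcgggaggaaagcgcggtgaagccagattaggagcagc
The TGACG core occurred in 20.8% of 32851 windows of this length, the full element TGACGTCA in 1.79% and the CArG box in 1.63%. Nr4a1 held 4 cores, the nearest beginning 40 bases before the start. Dusp1 held 3 matches, 2 of them the overlapping strands of 1 full element that begins 143 bases before the start. Npas4 held 2 cores on opposite strands, beginning 179 and 169 bases before the start, and Fos held 2, beginning 129 and 66 bases before it. The Egr2 window held 2 cores on either side of a CArG box that begins 72 bases before the start. A CArG box lay in the windows of 4 of the 5 annotated Egr2 starts, but these are not 4 separate boxes. The windows that begin at 67537619, 67537620 and 67537680 overlap and hold the same box, and the window at 67537316 holds another. Fosb and Junb, not printed, held 1 core each, and Jund, not printed, held 0 cores and 0 CArG boxes. Egr1 and Arc had no window of this length to search. A match is a description of the sequence and not a measured site.

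Scaled to exon length, Egr1 was the most abundant member, at 72.5 ± 22.1 CPM per kilobase (SD, n = 84), and exceeded Arc in 61 of 84 libraries. Arc was at 66.9 ± 42.8, Nr4a1 at 48.6 ± 21.7, Jund at 44.4 ± 5.74 and Junb at 34.9 ± 12.03 CPM per kilobase. Dusp1 (12.7 ± 4.88), Fos (11.6 ± 6.65), Npas4 (8.99 ± 4.05), Fosb (4.19 ± 1.37) and Egr2 (3.35 ± 1.56 CPM per kilobase) followed. Among neighbours in this order, the difference in level exceeded the SD of each between Junb and Dusp1, in the same order in 84 of 84 libraries, and between Npas4 and Fosb, in the same order in 78 of 84. Jund and Junb differed by more than the SD of Jund but less than that of Junb, in the same order in 64 of 84 libraries, and the other neighbours differed by less than the SD of either. The most and least abundant libraries differed in CPM by 18.5-fold for Fos, 15.3-fold for Arc, 11.9-fold for Egr2 and 9.67-fold for Npas4, but by 1.79-fold for Jund. After set, sex and line were fitted, the residual spread of 9 members lay between percentiles 92 and 99.4 among 500 genes of like mean level, and that of Jund lay at percentile 41.2.

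**Figure D1:**
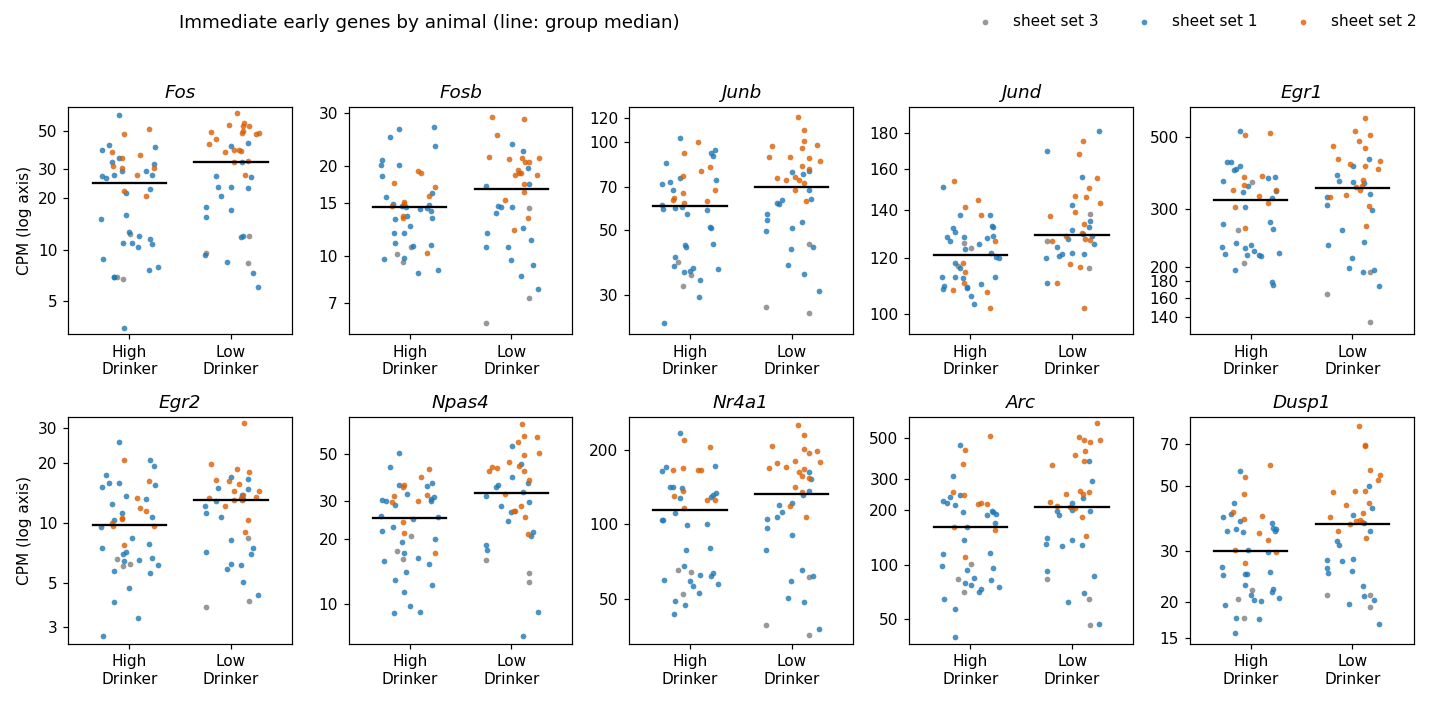
CPM of the 10 members in each of the 44 High Drinker and 40 Low Drinker animals on log axes, 1 point per animal, coloured by sheet set, with a black line at the group median. The groups overlap for every member, and most points of sheet set 2 lie towards the top and most of sheet set 3 towards the bottom in all panels but Jund.

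The first comparison asked whether naive High Drinker mice differed from Low Drinker mice. Of the 10 members, 1 was lower in High Drinker animals (Jund) and 0 were higher at an adjusted p of 0.05, by edgeR's quasi-likelihood test with sheet set and sex as covariates and Benjamini-Hochberg adjustment over 17071 genes. Among all tested genes, 2.08% were lower and 1.86% higher in High Drinker animals (3.94% in either direction), so a count of 1 among 10 is not read as a result about the members. The median log2 fold change of the members was -0.10, against 0.00 over all tested genes, and 8 of 10 were below 0. The number of members below 0 changed with the libraries used, as described below.

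The AP-1 subunits pair through leucine zippers to bind AP-1 sites. Jund (ENSMUSG00000071076, chromosome 8, 70697739 to 70700616, mm10) encodes the JunD subunit, which differs from its relatives in being expressed at a steady level in many tissues. It ran from 101.7 to 154.2 CPM in High Drinker animals, with a median of 120.9, and from 101.8 to 181.5 CPM in Low Drinker animals, with a median of 129.3. The ranges overlapped through most of their length, and 33 of 44 High Drinker animals lay below the Low Drinker median. Jund averaged 122 ± 12.9 CPM in High Drinker animals and 134 ± 17.9 CPM in Low Drinker animals (SD), a log2 fold change of -0.12 ± 0.04 (SE, edgeR adjusted p = 0.0454). The call was lost without the 5 libraries that stood apart (log2 fold change -0.11, edgeR adjusted p = 0.149) and within sheet set 1 (-0.14, 0.176) and sheet set 2 (-0.10, 0.936), with the sign kept in each. Jund overlaps an exon of Gm11175 on the opposite strand, and since the library kits do not mark strand, reads of the pair cannot be told apart.

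Fos (ENSMUSG00000021250, chromosome 12, 85473890 to 85477273) encodes the c-Fos subunit, induced from a low resting level. It ran from 3.46 to 62.3 CPM in High Drinker animals, with a median of 24.6, and from 5.99 to 63.9 CPM in Low Drinker animals, with a median of 32.7. The groups overlapped over nearly the whole range. The log2 fold change was -0.14 ± 0.17 (SE, edgeR adjusted p = 0.726). Fosb (ENSMUSG00000003545, chromosome 7, 19302721 to 19310045), whose truncated product accumulates in striatum after repeated stimulation, ran from 8.76 to 26.97 CPM in High Drinker animals (median 14.5) and from 5.98 to 29.05 CPM in Low Drinker animals (median 16.7), a log2 fold change of -0.03 ± 0.10. Junb (ENSMUSG00000052837, chromosome 8, 84976909 to 84978748), a Jun partner of the Fos proteins, ran from 24.1 to 102 CPM (median 60.4) in High Drinker animals and from 26.2 to 121 CPM (median 70.3) in Low Drinker animals, a log2 fold change of -0.05 ± 0.09. For these 3 genes the difference was smaller than its error, and the edgeR adjusted p lay between 0.726 and 0.926.

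The EGR factors are zinc-finger proteins that bind GC-rich promoter sites. Egr1 (ENSMUSG00000038418, chromosome 18, 34859823 to 34864984), with high resting expression in forebrain, ran from 176 to 522 CPM in High Drinker animals (median 319) and from 135 to 573 CPM in Low Drinker animals (median 348), a log2 fold change of 0.01 ± 0.09. Egr2 (ENSMUSG00000037868, chromosome 10, 67535475 to 67542188), also known for its part in myelination by Schwann cells, ran from 2.68 to 25.7 CPM in High Drinker animals (median 9.81) and from 3.78 to 31.8 CPM in Low Drinker animals (median 13.05), a log2 fold change of -0.09 ± 0.14. Neither difference exceeded its error.

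Npas4 (ENSMUSG00000045903, chromosome 19, 4984355 to 4989971) encodes a bHLH-PAS factor that in neurons responds to calcium entry and acts on inhibitory synapses. It ran from 9.07 to 50.3 CPM in High Drinker animals, with a median of 25.1, and from 7.11 to 68.8 CPM in Low Drinker animals, with a median of 32.8. High Drinker animals lay below the Low Drinker median in 35 of 44 cases, more than for any other member, yet the ranges overlapped. That count is not adjusted for sheet set, and it was 28 of 44 for Egr1, whose log2 fold change was 0.01. Npas4 averaged 25.3 ± 10.1 CPM in High Drinker animals and 34.04 ± 14.9 CPM in Low Drinker animals (SD), a log2 fold change of -0.28 ± 0.13 (SE) that did not pass the adjustment (edgeR unadjusted p = 0.0379, adjusted p = 0.245). Its sign was kept under all 14 alternatives, with log2 fold changes between -0.49 and -0.03 and adjusted p values between 0.0652 and 0.971.

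Nr4a1 (ENSMUSG00000023034, chromosome 15, 101266846 to 101274792) encodes Nur77, an orphan nuclear receptor. It ran from 43.6 to 234 CPM in High Drinker animals (median 114) and from 35.9 to 251 CPM in Low Drinker animals (median 133), a log2 fold change of 0.01 ± 0.12. Arc (ENSMUSG00000022602, chromosome 15, 74669083 to 74672570), whose protein promotes endocytosis of AMPA receptors at dendritic spines, ran from 39.9 to 519 CPM in High Drinker animals (median 163) and from 46.3 to 611 CPM in Low Drinker animals (median 208), a log2 fold change of -0.17 ± 0.16. Dusp1 (ENSMUSG00000024190, chromosome 17, 26505590 to 26508519) encodes a phosphatase that inactivates MAP kinases and so feeds back on the signal. It ran from 15.6 to 59.0 CPM in High Drinker animals (median 29.9) and from 16.7 to 80.3 CPM in Low Drinker animals (median 37.1), a log2 fold change of -0.12 ± 0.09. None of the 3 passed the test, with edgeR adjusted p values of 0.989 for Nr4a1, 0.649 for Arc and 0.527 for Dusp1.

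**Figure D2:**
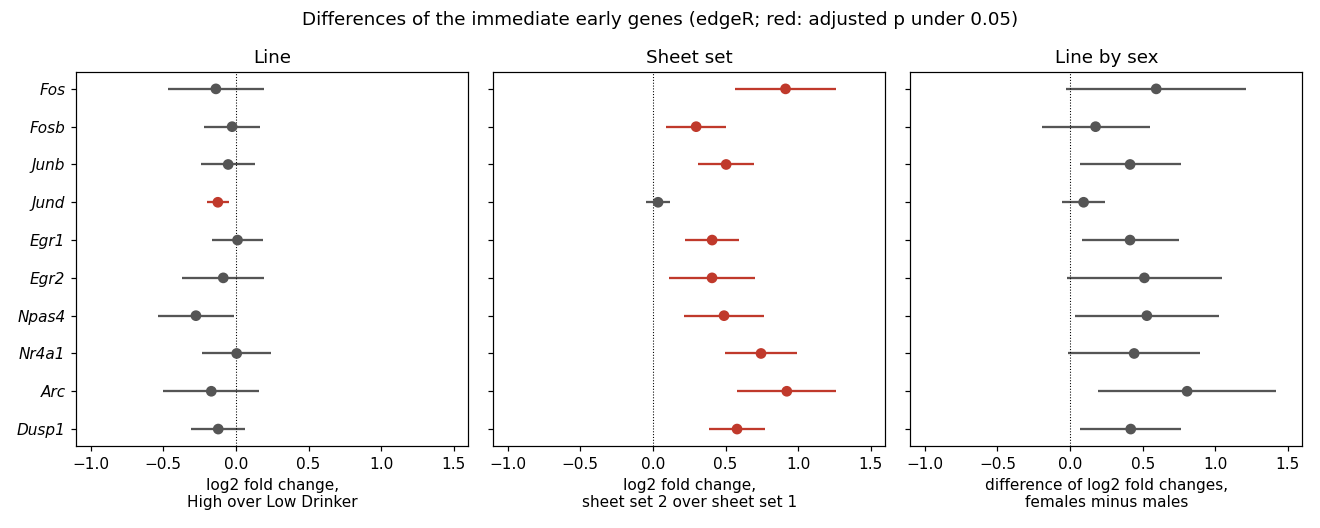
Fitted log2 differences of the 10 members with intervals of 2 standard errors to each side, for High over Low Drinker animals, for sheet set 2 over sheet set 1, and for the line difference in females minus that in males. Red marks an adjusted p under 0.05, which Jund alone among the members reached in the left panel, all members but Jund in the middle panel and 0 members in the right panel.

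Larger differences stood between the sheet sets. In sheet set 2 against sheet set 1, 9 of 10 members were higher and 0 were lower (edgeR adjusted p under 0.05, with line and sex as covariates), where 12.9% of all tested genes were higher and 12.2% lower (25% in either direction). Fos ran from 20.5 to 63.9 CPM in the 30 libraries of set 2 (median 38.7) and from 3.46 to 62.3 CPM in the 48 of set 1 (median 19.3), and all 30 libraries of set 2 lay above the set 1 median. The low end separated the sets, while the high ends met. Its log2 fold change was 0.91 ± 0.17 (SE, edgeR adjusted p = 0.000365). Arc rose to 307 ± 135 CPM in set 2, against 156 ± 88.1 CPM in set 1 (SD), a difference of 0.92 on the log2 scale (edgeR adjusted p = 0.000314). Nr4a1 rose to 167 ± 35.1 CPM in set 2, against 99.5 ± 43.4 CPM in set 1, a difference of 0.74 on the log2 scale (edgeR adjusted p = 6.63e-05). The other members that rose were Dusp1 (log2 fold change 0.58), Junb (0.50), Npas4 (0.49), Egr1 (0.41), Egr2 (0.41) and Fosb (0.30). Jund stood at 132 ± 19.02 CPM in set 2 and 126 ± 15.4 CPM in set 1, a difference of 0.03 on the log2 scale (edgeR adjusted p = 0.551).

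Sheet set 3, the animals with the lowest numbers, lay at the other end. Its 6 libraries averaged 9.33 ± 2.46 CPM for Fos, against 21.02 ± 12.6 CPM in set 1, and 74.9 ± 18.7 CPM for Arc, against 156 ± 88.1 CPM in set 1 (SD). Relative to set 1, 3 members were lower and 0 were higher, where 1.07% of all tested genes were lower, 1.61% higher and 2.67% different in either direction: Fos (log2 fold change -1.25, edgeR adjusted p = 0.0337), Nr4a1 (-0.96, 0.0170) and Junb (-0.76, 0.0119). With both marker scores as covariates Nr4a1 and Junb were still called, and Fos was not (log2 fold change -0.91, edgeR adjusted p = 0.0532). With the scores 664 of all tested genes passed, against 456 without them. The comparison of set 3 with set 1 was added after the data were seen. All 10 members had fold changes below 0 there. Of the tissue markers, all 8 cortical genes had fold changes below 0 (median log2 fold change -0.85) and 11 of 13 medium spiny neuron genes had one above 0 (median 0.16), with 0 called in either list. With the sheet sets as the only term, set took between 24.7% and 47.5% of the variance of log2 CPM in 9 members and 2.58% in Jund, whereas line took 13.3% in Jund and at most 7.76% in the others.

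Tissue markers moved with the sheet sets too. In set 2 against set 1, 12 of 13 medium spiny neuron markers were lower (median log2 fold change -0.83) and 6 of 8 cortical markers were higher (median 0.51). The medium spiny neuron markers summed to 503.7 to 8872 CPM in set 2 (median 2878) and to 1118 to 13700 CPM in set 1 (median 6107), and the cortical markers to 586.9 to 3934 CPM in set 2 (median 2369) and to 195.6 to 3544 CPM in set 1 (median 1645). With both marker scores as covariates, an alternative added after seeing the data, 5 members were still called higher in set 2. There 286 of all tested genes passed in either direction, against 4274 in the main fit. All 10 log2 fold changes were above 0: Nr4a1 0.57, Junb 0.42, Fos 0.62, Dusp1 0.36 and Arc 0.55 passed. Without the 5 libraries that stood apart, 7 members were called, where 1537 of all tested genes passed. Fosb (edgeR adjusted p = 0.0818) and Egr2 (0.0825) were lost. Within Low Drinker animals 9 members were called, where 1763 of all tested genes passed. Within High Drinker animals 0 members were called, where 0 of all tested genes passed. In High Drinker animals the log2 fold changes were 0.56 for Fos, 0.65 for Arc and 0.55 for Nr4a1. Over the 10 members they ran from -0.0023 to 0.65, with a median of 0.32. The difference of the set effect between lines was tested directly as an interaction in sets 1 and 2, and 0 of 10 members passed, where 0.00587% of all genes did (edgeR adjusted p = 0.997 for each member, lowest unadjusted p = 0.0124 for Fosb).

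Female and male animals were set against each other next. At the level of sex alone, 0 of 10 members passed (edgeR, 0 also at an unadjusted p under 0.05), where 0.0996% of all tested genes did (0.0527% higher and 0.0469% lower in females), and the log2 fold changes of females over males lay between -0.06 and 0.15. Their direction changed with the animals used. In sheet set 1 all 10 were above 0 (highest 0.35), and in sheet set 2 only 1 was (lowest -0.31). In High Drinker animals 9 were above 0 (highest 0.56), and in Low Drinker animals 0 were (lowest -0.30), with 0 members called in any of these fits. Whether the line difference itself differed between the sexes was tested as an interaction, which no member passed. Arc averaged 211 ± 117 CPM in High Drinker females and 199 ± 115 CPM in Low Drinker females. In males it averaged 143 ± 94.5 CPM in High Drinker animals and 267 ± 162 CPM in Low Drinker animals (SD). The line difference of Arc in females minus that in males was 0.81 ± 0.31 on the log2 scale (SE, edgeR unadjusted p = 0.0105, adjusted p = 0.784). Npas4 averaged 26.9 ± 9.05 CPM in High Drinker females and 28.9 ± 12.9 CPM in Low Drinker females. In males it averaged 23.8 ± 10.95 CPM in High Drinker animals and 38.2 ± 15.3 CPM in Low Drinker animals. These means of Arc and Npas4 are not adjusted for sheet set, over which the lines are spread unequally. With set as a term, the log2 fold change of High over Low Drinker in males alone was -0.50 for Arc and -0.49 for Npas4. In females alone it was 0.22 for Arc and -0.03 for Npas4.

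The interaction was above 0 for all 10 members, with a median of 0.43 against -0.01 over all tested genes. Most members rose and fell together across the same animals, as described below. Counts of members by sign or by call, here and elsewhere, are thus not counts of independent results. At an unadjusted p under 0.05 there were 5 members (Junb, Egr1, Npas4, Arc and Dusp1) and 965 of 17071 genes, and 0 members and 0 genes (0%) passed the edgeR adjustment. In males alone all 10 members had a log2 fold change of High over Low Drinker below 0, from -0.04 for Fosb to -0.50 for Arc, and in females alone 8 of 10 had a log2 fold change above 0, with 0 called in either sex. Within sheet set 1 the interaction was above 0 for 10 members and within sheet set 2 for 8, Fosb (-0.25) and Jund (-0.14) being below 0. The mean tissue scores varied with line and sex. The medium spiny neuron score averaged 0.08 ± 0.85 in High Drinker females and 0.15 ± 0.70 in Low Drinker females, and 0.25 ± 0.77 in High Drinker males and -0.45 ± 1.31 in Low Drinker males (SD). The cortical score averaged -0.06 ± 1.14 in High Drinker females and -0.16 ± 0.93 in Low Drinker females, and -0.13 ± 0.82 in High Drinker males and 0.31 ± 0.93 in Low Drinker males. With both marker scores as covariates all 10 interactions were above 0, but of the 5 members Arc alone had an unadjusted p under 0.05, at 0.51 ± 0.25 (SE, edgeR unadjusted p = 0.0466, adjusted p = 0.994). There the unadjusted edgeR p was 0.0560 for Junb, 0.0556 for Egr1, 0.121 for Npas4 and 0.117 for Dusp1, and the interaction of Fos was 0.295, against 0.59 without the scores. Without the 5 libraries that stood apart, of which 3 were Low Drinker males of sheet set 2, Egr1, Npas4 and Arc had an unadjusted p under 0.05, and Junb (edgeR unadjusted p = 0.0756) and Dusp1 (0.0892) did not.

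**Figure D3:**
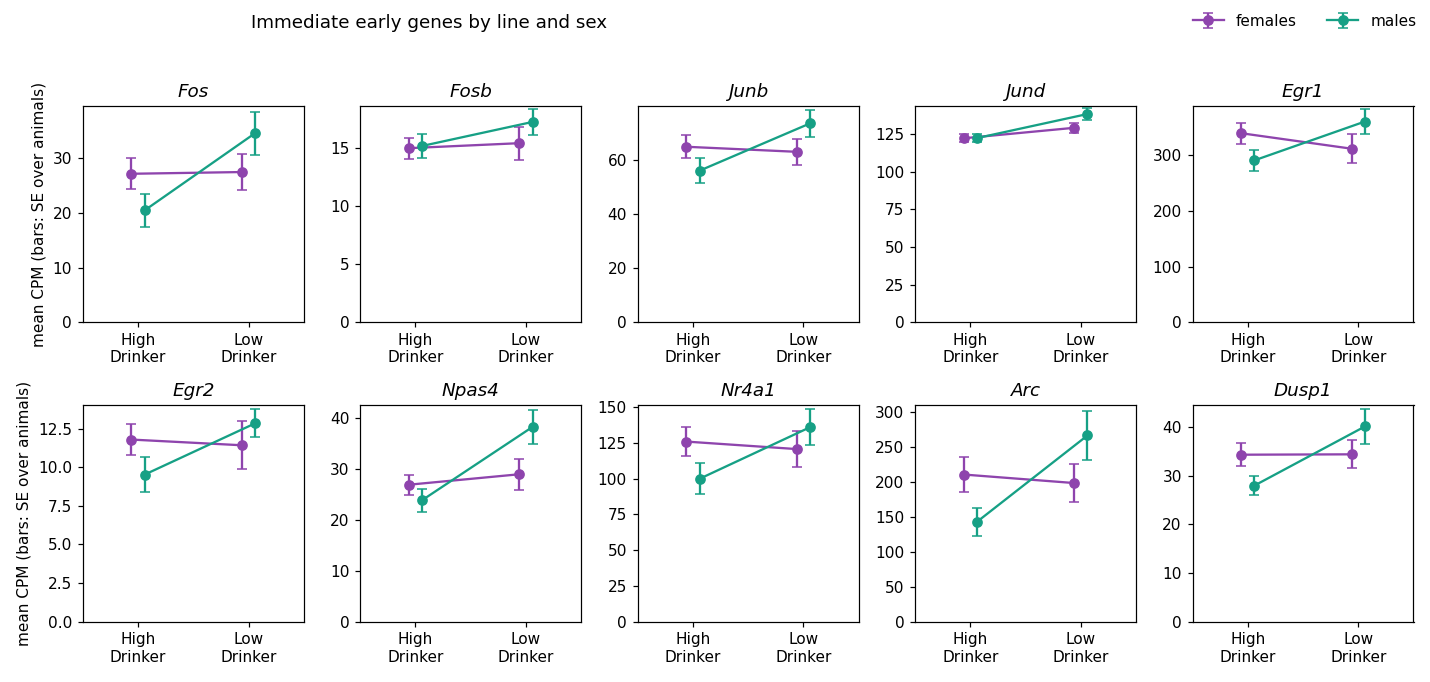
Mean CPM of the 10 members in females (purple) and males (green) of the High Drinker and Low Drinker groups, with bars of 1 standard error over animals. For most members the female lines are nearly flat and the male lines are lower in High Drinker than in Low Drinker animals, as for Arc at 143 against 267 CPM. The means are not adjusted for sheet set.

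The design text names differential variance, and the spread of each member was compared between the lines. By limma on absolute deviations from the median of line and sex, 0 of 10 members passed, where 0.0117% of all tested genes did (2 genes). The member with the lowest unadjusted p was Fosb, whose mean deviation in High Drinker minus Low Drinker animals was -0.14 ± 0.06 on the log2 scale (SE, limma unadjusted p = 0.0390, adjusted p = 0.979). With deviations taken from the median of line, sex and set, the value of Fosb was -0.05 (limma unadjusted p = 0.365), and Fos, Junb, Npas4 and Dusp1 changed sign. The CV of Fosb was 30.4% in High Drinker animals and 34.5% in Low Drinker animals. The other 9 unadjusted limma p values lay between 0.356 and 0.987. On simulated data this test recovered few of the changes in spread put in, so 0 calls do not show that the spreads were alike.

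Within each line the members rose and fell together from animal to animal, apart from Jund. After set and sex were removed within each line, 36 of 45 pairs had a positive correlation past an adjusted p of 0.05 in High Drinker animals (n = 44) and 36 of 45 in Low Drinker animals (n = 40), by permutation of the pairings with Benjamini-Hochberg adjustment over the 90 tests. These were the pairs without Jund, and their r ran from 0.404 to 0.969 in High Drinker animals and from 0.364 to 0.891 in Low Drinker animals. The median over all 45 pairs was 0.731 in High Drinker animals and 0.637 in Low Drinker animals. The share of pairs past the threshold among other genes was not computed, so these counts are not compared with it. The first component of the 10 members held 71.4% of their residual variance in High Drinker animals and 65.8% in Low Drinker animals.

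Arc and Dusp1 were the closest pair in both lines. Their Pearson r was 0.969 in High Drinker animals (Spearman rho 0.975, permutation p = 1e-05 for each, adjusted p = 1.67e-05 and 1.84e-05) and 0.891 in Low Drinker animals (rho 0.912, permutation p = 1e-05 for each, with the same adjusted values), where 1e-05 is the smallest p that the resamples can give. Without the 2 animals farthest from the median of Arc, r was 0.967 in High Drinker animals and 0.857 in Low Drinker animals. Within sheet set 1 it was 0.967 in High Drinker animals and 0.956 in Low Drinker animals, and within sheet set 2 it was 0.975 in High Drinker animals and 0.797 in Low Drinker animals. Nr4a1 and Dusp1 followed in High Drinker animals with r 0.921 (rho 0.893, 0.893 without the 2 farthest, 0.938 in set 1 and 0.925 in set 2), and Junb and Nr4a1 in Low Drinker animals with r 0.883 (rho 0.849, 0.834 without the 2 farthest, 0.951 in set 1 and 0.617 in set 2), each at the smallest permutation p.

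Jund aside, the lowest median r with the other members was that of Fosb in High Drinker animals (0.625) and of Npas4 in Low Drinker animals (0.521). The r of Fosb with Arc was 0.568 in High Drinker animals (rho 0.517, permutation p = 5e-05, adjusted p = 7.38e-05) and 0.364 in Low Drinker animals (rho 0.287, permutation p = 0.0212, adjusted p = 0.0258, but adjusted p = 0.0900 by rank). Within sheet set 1 that r was 0.653 in High Drinker animals and 0.683 in Low Drinker animals, and within sheet set 2 it was -0.02 in High Drinker animals and -0.06 in Low Drinker animals, so the pooled relation did not hold in set 2. The r of Fosb with Npas4 was 0.404 in High Drinker animals and 0.402 in Low Drinker animals. Within sheet set 2 it was -0.03 in High Drinker animals and 0.589 in Low Drinker animals.

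Jund had 0 of 9 correlations past the threshold in High Drinker animals, with r between -0.05 and 0.24. In Low Drinker animals all 9 were below 0, and 2 passed: with Egr1 at r = -0.435 (rho -0.332, permutation p = 0.00496, adjusted p = 0.00647) and with Egr2 at r = -0.388 (rho -0.406, permutation p = 0.0132, adjusted p = 0.0163). Without the 2 farthest animals they were -0.332 and -0.270, in set 1 -0.442 and -0.402, and in set 2 -0.430 and -0.331. Whether r differed between the lines was tested for each pair by permuting line labels within sex and set, and 0 of 45 pairs passed. The lowest p was that of Fosb and Jund, with r 0.235 in High Drinker animals and -0.317 in Low Drinker animals (permutation p = 0.00555, adjusted p = 0.250), and 2 pairs had an unadjusted p under 0.05. The r was higher in High Drinker than in Low Drinker animals for 40 of 45 pairs, which share genes and animals and are not independent.

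**Figure D4:**
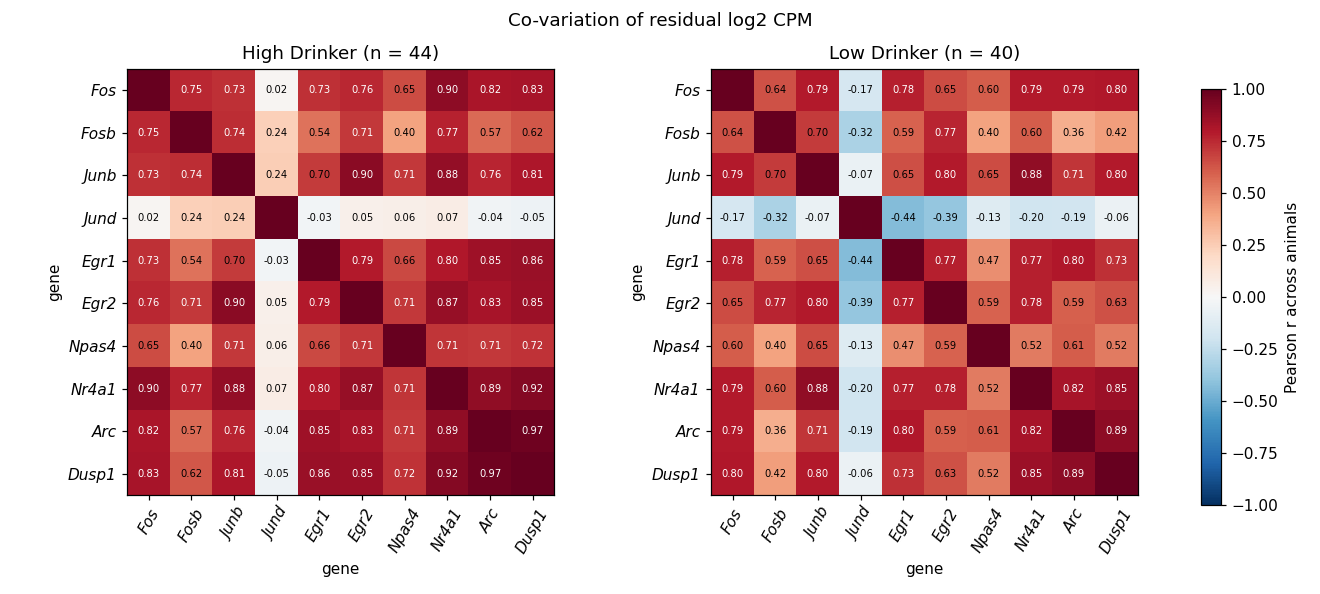
Pearson r between residual log2 CPM of each pair of members across 44 High Drinker animals (left) and 40 Low Drinker animals (right), from -1 (blue) to 1 (red). Jund forms a pale or blue row and column in both panels, and Arc with Dusp1 is the deepest red pair, at 0.97 and 0.89.

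The members were set against the tissue scores within each line, a family of 40 correlations. The r with the medium spiny neuron score was below 0 for 9 of 10 members in each line and past the threshold for 5 in High Drinker animals and 6 in Low Drinker animals. The cortical score correlated positively, past the threshold, with 4 members in High Drinker animals and 6 in Low Drinker animals. The share of all tested genes that pass with these scores was not computed. These counts are therefore not read as a result about the members. For Fos and the medium spiny neuron score, r was -0.550 in High Drinker animals (rho -0.581, adjusted permutation p = 0.0006, -0.548 without the 2 farthest, -0.585 in set 1 and -0.736 in set 2). In Low Drinker animals it was -0.580 (rho -0.633, adjusted permutation p = 0.0006, -0.577 without the 2 farthest, -0.685 in set 1 and -0.614 in set 2). Arc correlated with the cortical score at r 0.379 in High Drinker animals (rho 0.471, adjusted permutation p = 0.0269, 0.489 without the 2 farthest, 0.381 in set 1 and 0.430 in set 2) and 0.677 in Low Drinker animals (rho 0.688, adjusted permutation p = 8e-05, 0.617 without the 2 farthest, 0.637 in set 1 and 0.830 in set 2). By Pearson r, Jund, Egr2, Fosb and Npas4 passed with neither score in either line. By rank, Npas4 passed with the medium spiny neuron score in Low Drinker animals (rho -0.454, adjusted permutation p = 0.00949). Its r there was -0.322 (adjusted permutation p = 0.0733). With both scores regressed out, the median r between members was 0.749 in High Drinker animals and 0.635 in Low Drinker animals, close to the values before. Of 60 correlations with library size, genes detected and the share of the ribosomal RNA gene Gm42418, 0 passed the adjustment. The r with Gm42418 was above 0 for only 1 of 10 members in each line. Its median was -0.225 in High Drinker animals (lowest -0.308) and -0.296 in Low Drinker animals (lowest -0.493).

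**Figure D5:**
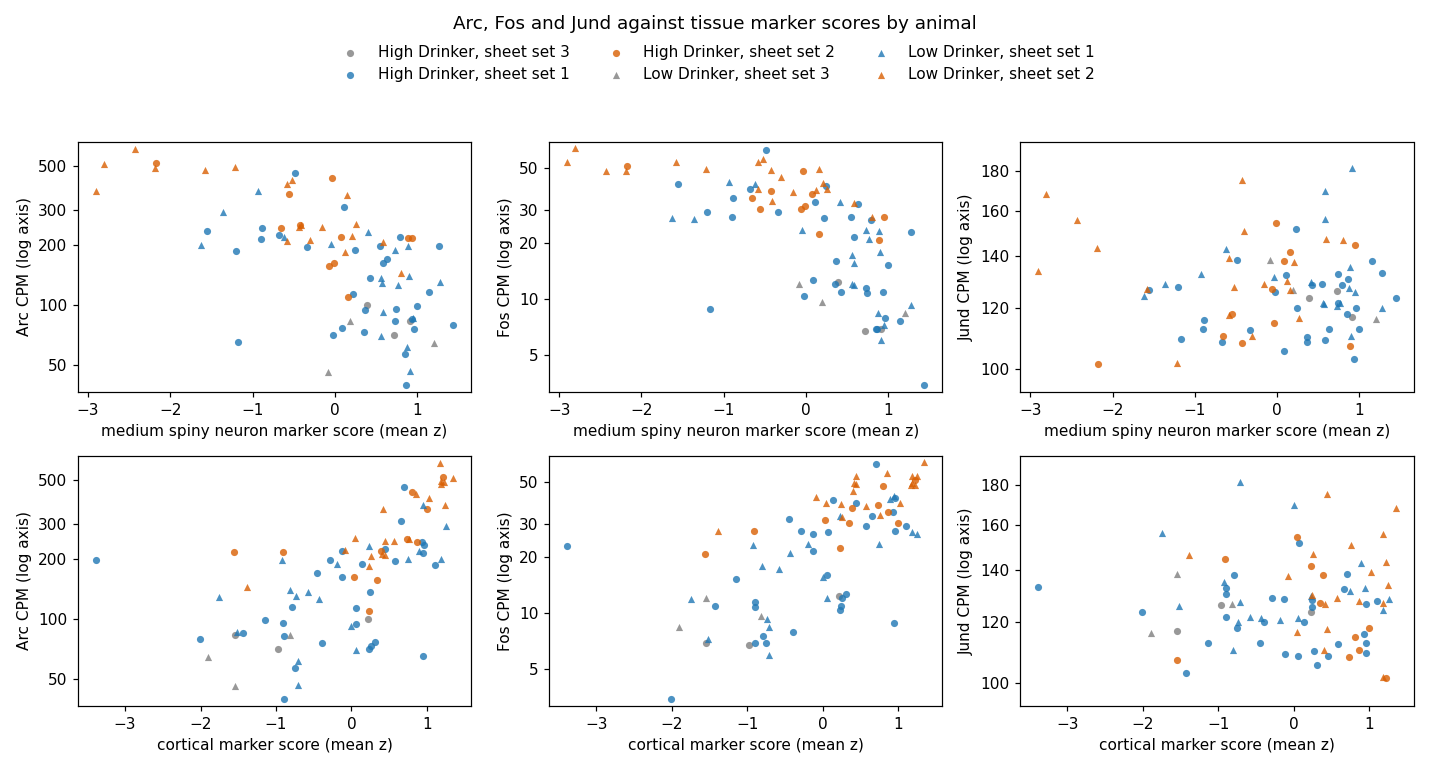
CPM of Arc, Fos and Jund on log axes against the medium spiny neuron score (top) and the cortical score (bottom), in mean z, 1 point per animal, with circles for High Drinker, triangles for Low Drinker and colours for sheet sets. Arc and Fos are lower at high medium spiny neuron scores and higher at high cortical scores, and Jund passed the threshold with neither score.

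Other genes of the same pathway were taken from 2 lists. Of 49 further activity-regulated genes, 48 were tested, and in the line difference 1 was higher and 0 were lower in High Drinker animals, with a median log2 fold change of -0.03, where 1.86% of all tested genes were higher and 2.08% lower. The gene that rose was Ptgs2, which encodes the inducible cyclooxygenase (log2 fold change 0.56 ± 0.16, SE, edgeR adjusted p = 0.0366). Of 36 upstream signalling genes (kinases, phosphatases, CREB and serum response factor with their cofactors, striatal adenylyl cyclase signalling), 0 were higher and 1 was lower, with a median of 0.03. The gene that fell was Map2k2, a kinase that activates ERK (log2 fold change -0.13 ± 0.04, SE, edgeR adjusted p = 0.0280). In sheet set 2 against set 1, 24 of the 48 activity-regulated genes rose and 2 fell, among them Ier2 (0.91), Btg2 (0.73) and Ccn1 (0.70) upwards and Per2 (-0.37) and Rgs2 (-0.36) downwards, while 4 of the 36 upstream genes rose and 6 fell. Among all tested genes 12.9% rose and 12.2% fell, a share near that of the upstream genes.

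The genes most like the members were found by their correlation with the mean z score of the 10 members over 84 libraries, after line, sex and set were removed. Only genes outside the members with a mean of at least 1 CPM and an established symbol were ranked, here and member by member. Gm, Rik, mitochondrial and accession-like names were left out. The 10 highest of the ranked genes were Dusp5 (r 0.805), Btg2 (0.778), Ier2 (0.769), Midn (0.764), Ccn1 (0.762), Egr4 (0.753), Per1 (0.733), Csrnp1 (0.720), Phf13 (0.712) and Tnfrsf25 (0.711), and the first 8 were on the list of activity-regulated genes. Over that list the median r was 0.390, with 42 of 48 above 0, against -0.02 over all tested genes. The list was chosen with earlier results of these data known, so the overlap is a description and not independent support. Member by member, the closest other gene was Midn for Fos (r 0.852), Fosl2 for Fosb (0.824), Btg2 for Junb (0.772), Klf10 for Egr1 (0.807), Egr4 for Egr2 (0.727), Snora34 for Npas4 (0.693), Dusp5 for Nr4a1 (0.812), Trib1 for Arc (0.826) and Csrnp1 for Dusp1 (0.840). For Jund it was the zinc-finger gene Zfp444 (0.828), which is on none of the lists. Of these genes closest to a single member, Klf10, Snora34 and Zfp444 were outside the lists. Snora34 averaged 1.27 CPM, just above the limit of 1 CPM. These r values describe the 84 libraries, which share sheet sets and tissue makeup, and no p was computed for them.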

How the data were processed

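Gene counts of 84 libraries were used as deposited by the authors, raw read counts per gene in the layout of featureCounts, with a Length column (annotation, in bases) beside them. The submitters' processing notes name STAR, FastQC, edgeR, Subread and featureCounts, and the build mm10. Tool versions, and whether counting used strand or multi-mapped reads, are not stated there. Per the labels' protocols, cDNA was amplified before library preparation, so counts include duplicate molecules, and the kits do not mark strand. The 0 rows that name no gene took 0% of counts. Group and sex came from the labels, and 0 of 3486 library pairs were identical. Replicates are separate animals.

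Differences were tested in R 4.3.3 by the quasi-likelihood method of edgeR 4.0.16, after TMM normalization and filterByExpr by line and sex, with terms for set, sex and line and Benjamini-Hochberg adjustment over 17071 genes at 0.05. Variability used limma 3.58.1 on log2 CPM with a prior count of 2. Correlations used 100000 permutations in numpy 2.4.6 under Python 3.11.15. Libraries stood apart when their median rank correlation with the others lay over 5 median absolute deviations below the median. DESeq2 1.42.0 and sva 3.50.0 served as alternatives. The tests were checked on simulated data. Spread between animals, not counting error, set the precision.

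The members and lists were chosen with earlier results of these data known. All 10 members are named, with up to 6 list genes past the threshold of the line difference, the 10 most and 5 least alike genes and the closest gene to each member, except 1 gene that is not reported here. The genes named for the sheet set difference of the lists were chosen after their values were seen. The line by sheet set and sheet set 3 comparisons were added after the data were seen.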

Additional observations from a re-analysis of the deposited data

How the results depend on the processing

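Across the alternatives of the line difference, 1 member (Jund) was called lower under RLE normalization, DESeq2, no sheet set term, marker scores as covariates, 5 surrogate variables and without Gm42418. The count was 0 without a filter on low counts (Jund edgeR adjusted p = 0.0680), by limma-voom (0.0508), in sheet set 1 only, in sheet set 2 only, without sheet set 3 (0.0601), in females only (0.676), in males only (0.158) and without the libraries that stood apart. The single-set and single-sex fits hold fewer animals, and the cause of the other losses was not tested. Over these 14 alternatives the log2 fold change of Jund stayed between -0.15 and -0.09. All genes past the threshold numbered 672, against 79 in each of sheet sets 1 and 2 alone, 35 in females, 107 in males, 425 without the libraries that stood apart, 1023 with marker scores and 2448 with 5 surrogate variables. In females alone 8 members were above 0 and in males alone 0 were, and in sheet set 1 alone 6 were.

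For sheet set 2 against set 1, the 9 higher members became 0 in High Drinker animals only, where Fosb turned to -0.0023 (edgeR adjusted p = 0.996), and 5 with marker scores as covariates. The count of all genes past the threshold was 4274, against 1763 in Low Drinker animals only, 1537 without the libraries that stood apart and 286 with marker scores. For sex, 17 genes passed, against 34 without a filter and 10 or 11 within a single set or line. For variability, 2 genes passed, against 5 with a prior count of 0.5 and 0 with medians by set or without the libraries that stood apart, and the line by set interaction had 1 gene, against 0 without those libraries. For sheet set 3 against set 1, the 3 lower members became 5 by DESeq2 and 2 with marker scores as covariates, where the call of Fos was lost. Over all tested genes 456 passed in the main fit of that comparison, 619 by DESeq2 and 664 with marker scores. Within sheet set 2 only, the pairs past the threshold numbered 21 in High Drinker animals and 22 in Low Drinker animals, against 36 in each. There Fosb turned to r -0.0226 with Arc and -0.0303 with Npas4 in High Drinker animals, and to -0.0591 with Arc and -0.00769 with Dusp1 in Low Drinker animals. No paired analysis was possible because replicate numbers here only follow the order of accession and pair no animals.

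No member came near a count of 0 in any library. The spread between animals, above that of most genes of like level for 9 members, sets the errors given with each fold change.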

Other observations

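Genes that ran most against the members were ranked by r with their mean z score over 84 libraries, within the limits on level and name given above. Among them were Atpaf1 (-0.611), an assembly factor of the mitochondrial ATP synthase, Tbc1d4 (-0.605), a Rab GTPase-activating protein, Mindy4b-ps (-0.587) and Gpr101 (-0.584), an orphan receptor. All 13 medium spiny neuron markers had an r below 0 (median -0.429), and all 8 cortical markers had one above 0 (median 0.395). The 6 oligodendrocyte markers had a median of -0.107, the 6 astrocyte markers -0.0496, the 5 microglial markers -0.168 and the 5 endothelial markers -0.144. The 4 choroid plexus markers had a median of -0.279, and 3 of them (Ttr, Kcnj13 and Folr1) were at 0 counts in at least 1 library.

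The highest library of the series was Low Drinker 33 for Fos, Junb, Nr4a1 and Dusp1, and Low Drinker 34 for Arc. Low Drinker 33 had 63.9 CPM of Fos and 251 CPM of Nr4a1, with a medium spiny neuron score of -2.81 and a cortical score of 1.35. The highest library for Jund was another, Low Drinker 6, of sheet set 1, at 181.5 CPM. The part of tissue makeup in these values was not tested.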
